A study of Mus musculus with 6 samples.

Results

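The 10 genes described here are imprinted, protein-coding and linked to growth, and Mest leads them. They are Mest, Impact, Dlk1, Sgce, Plagl1, Peg3, Ndn, Cdkn1c, Grb10 and Peg10, taken by symbol from a deposited table of 17606 genes, where each has 1 entry. Mest was selected on its read counts and TPM values in the same comparison that is described below, where it fell, and the other 9 were added as imprinted growth genes beside it. The values of the 10 genes in this comparison are therefore a description and carry no test.

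An imprinted gene is read mainly from 1 parental copy. For many such genes the choice of copy goes back to methylation of DNA laid down in the egg or the sperm. Paternally expressed genes such as Mest, Dlk1, Peg3 and Plagl1 mostly favour growth of the fetus, and maternally expressed genes such as Cdkn1c and Grb10 mostly restrain it. Many of them are read strongly in fetal mesenchyme and fade after birth.

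The study deleted Ptch1, the receptor that holds the Hedgehog pathway off, in stromal cells of the mouse cornea and asked what this did to keratocytes, the cells that make the transparent collagen stroma. RNA was measured in sorted keratocytes in 3 libraries from control mice and 3 from Prrx1-creERT;Ptch1 mice, in which tamoxifen lets a Cre driven by Prrx1 cut floxed Ptch1. Mice of both groups were 10 weeks old, had 3 doses of tamoxifen and were sampled 1 month after. The study backcrossed the floxed Ptch1 line to C57BL/6. The labels call the controls only ctrl and do not give the sex of the mice or the number of mice behind a library. The study gives the Cre as active in other mesenchyme of the eye too, corneal endothelium included.

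The libraries held 20258439 to 24788063 expected counts, so that 3 counts, the floor used for detection, equal 0.121 to 0.158 CPM. CPM here is the rounded count per 1000000 counts of the library total after TMM scaling. Ptch1 itself, counted over the whole gene, stood at 7.89, 5.47 and 16.2 CPM in controls and at 185, 221 and 251 CPM in the libraries labelled Ptch1-ablated. A count over the whole gene does not show the floxed exons and so does not check the deletion. The Hedgehog targets Gli1 and Hhip were each higher in all 3 ablated libraries, at log2 fold changes of 7.15 ± 0.54 and 9.97 ± 0.27 (SE, n = 3 each, adjusted p = 5.35e-06 and 2e-09 by edgeR). Of 13888 genes tested, 763 were called, for which both a 2-fold change and an edgeR adjusted p no higher than 0.05 were asked. The share called higher was 3.36% and the share called lower 2.13%. The first component of the libraries (45.1% of the variance) followed the groups, whereas the second (22.2%) separated 2 libraries, control replicate 1 and ablated replicate 2, and results that rest on that pair are also given without it. Keratocyte markers summed to 50227 to 51884 CPM in controls and 27790 to 34347 CPM in ablated libraries, with 4 of 7 called lower. Epithelial markers summed to 39.6 to 68.6 CPM in controls and 2.25 to 9.04 CPM in ablated libraries, with 3 of 6 called lower and 1 called higher. The one called higher was Krt12, a defining marker, at 0 in all 3 controls and at 0.895, 2.08 and 2.09 CPM in ablated libraries. Mural cell markers summed to 340 to 364 CPM in controls and 628 to 648 CPM in ablated libraries, with 2 of 6 called higher. In such bulk libraries, fewer cells of a type and less RNA per cell cannot be told apart.

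Sequences are shown for Mest and Dlk1, the members with the largest falls, and for Nnat and Slc38a4, the 2 other imprinted genes that rose. Each is the stretch of 250 bases before the annotated start, 5′ to 3′ on the strand of the gene, from RefSeq on GRCm38.p6, with every CpG, the dinucleotide that carries methylation in mammals, in capitals. Mest is at chr6:30737800-30738049 on the plus strand, which is the inner of its promoters, inside an intron of its longer transcripts. Dlk1 is at chr12:109452573-109452822 on the plus strand. Nnat, whose host gene Blcap is on the other strand, is at chr2:157559828-157560077 on the plus strand. Of these bases 180 also lie in an annotated exon, the gene of which was not recorded. Slc38a4 is at chr15:97055957-97056206 on the minus strand.
Mest: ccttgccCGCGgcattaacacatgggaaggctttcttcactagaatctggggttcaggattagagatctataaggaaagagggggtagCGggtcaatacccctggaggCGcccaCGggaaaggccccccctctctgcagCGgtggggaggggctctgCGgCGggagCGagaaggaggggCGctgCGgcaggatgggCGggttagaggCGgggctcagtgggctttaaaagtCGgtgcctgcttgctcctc
Dlk1: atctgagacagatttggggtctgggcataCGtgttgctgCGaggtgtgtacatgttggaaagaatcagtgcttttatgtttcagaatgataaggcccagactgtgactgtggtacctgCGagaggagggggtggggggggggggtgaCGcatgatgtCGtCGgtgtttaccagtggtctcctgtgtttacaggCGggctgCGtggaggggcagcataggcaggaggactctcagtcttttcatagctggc
Nnat: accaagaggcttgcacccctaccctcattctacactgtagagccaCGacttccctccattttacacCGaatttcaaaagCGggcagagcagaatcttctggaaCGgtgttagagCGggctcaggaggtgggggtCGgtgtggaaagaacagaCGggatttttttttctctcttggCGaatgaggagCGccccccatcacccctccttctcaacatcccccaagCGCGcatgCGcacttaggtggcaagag
Slc38a4: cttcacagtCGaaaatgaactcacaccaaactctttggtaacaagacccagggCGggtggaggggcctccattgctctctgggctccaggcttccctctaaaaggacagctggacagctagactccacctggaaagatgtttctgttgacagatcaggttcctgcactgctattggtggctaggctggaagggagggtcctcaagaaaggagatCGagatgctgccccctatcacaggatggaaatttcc
The printed windows of Mest, Dlk1, Nnat and Slc38a4 held 14, 8, 12 and 3 CpGs, against a median of 6 (quartiles 2 and 16) over all 32851 windows of this length. Other annotated starts of the same genes gave other windows, with 7 CpGs at the outer start of Mest and with 5 CpGs at each of the 2 other starts of Slc38a4. Methylation was not measured in these libraries. The hexamer TGCCGC, the core bound by the imprint protector ZFP57, was searched on both strands. It occurred 2 times in the printed Mest window, but not in that of the outer start of Mest, and in none of the windows of Dlk1, Nnat and Slc38a4, and 8.68% of all windows held it. Among the members it was also in the Plagl1 window. The GLI core GACCACCCA, searched the same way, was in none of the 9 windows found for 6 of the members, and in 0.225% of all windows. Windows for Cdkn1c, Sgce, Peg10 and Impact were not analysed here.

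Mest is also the host of a microRNA. The hairpin of miR-335 lies at chr6:30741299-30741396 on the plus strand (GRCm38.p6), within 7 annotated Mest transcripts and in no Mest exon. Its 2 mature forms are shown because they are cut from the same precursor RNA as the Mest message, with the seed, bases 2 to 8, in capitals.
mmu-miR-335-5p: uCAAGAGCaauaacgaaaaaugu
mmu-miR-335-3p: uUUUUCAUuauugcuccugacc
The seeds differ, so that the forms do not share a seed family. The deposited table counts genes, and the mature miRNAs were not measured.

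Mest encodes a membrane-bound enzyme of the α/β-hydrolase fold in the endoplasmic reticulum and is expressed from the paternal copy. It stood at 1132, 1177 and 1220 CPM in control replicates 1, 2 and 3 and at 71.0, 60.5 and 60.1 CPM in ablated replicates 1, 2 and 3. Every ablated library was far below every control, and within each group the libraries lay close together. The means were 1176 ± 44.1 CPM in controls and 63.9 ± 6.14 CPM in ablated libraries (SD, n = 3 each). The difference was -4.20 ± 0.14 (SE) as log2 fold change, or 18.4-fold. In TPM, the deposited measure of transcripts per length, Mest had rank 105 of all genes in controls, at 984 ± 59.6 TPM, and rank 3065 in ablated keratocytes, at 53.3 ± 5.61 TPM (SD, n = 3 each). The fall was -4.16 to -4.28 over all alternative fits and left-out libraries, and -4.19 without control replicate 1 and ablated replicate 2. The expected counts of Mest are not whole numbers, such as 24662.8 in control replicate 1, which shows that some of its reads were shared with other sequence. Keratocyte markers fell in the same libraries, and their part in the fall of Mest was not tested.

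Impact, also paternally expressed, binds GCN1 and so restrains the translation kinase GCN2. It measured 108, 105 and 101 CPM in controls and 84.0, 97.7 and 84.3 CPM in ablated libraries. The groups did not overlap in CPM, but the difference was small, with a log2 fold change of -0.24 ± 0.15 (SE). In TPM the groups did overlap, with means of 63.8 ± 1.46 and 62.6 ± 8.43 TPM (SD, n = 3 each).

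Dlk1 encodes a membrane protein of the Notch ligand family that holds preadipocytes and other progenitors undifferentiated. It was lowly expressed, with 140, 201 and 190 counts in controls and 52, 38 and 61 counts in ablated libraries. These equal 6.42, 10.6 and 8.32 CPM in controls and 2.22, 1.61 and 2.46 CPM in ablated libraries, so that every ablated library was below every control. The log2 fold change was -2.01 ± 0.51 (SE, n = 3 each), and it stayed between -1.41 and -2.17 over the alternatives. The call of Dlk1 was lost, however, when any of control replicates 2 and 3 and ablated replicates 1, 2 and 3 was left out, at -1.81 to -2.14. It was kept without control replicate 1 (-2.17), and without control replicate 1 and ablated replicate 2 together (-2.01). The sum of epithelial markers fell in the same libraries, although Krt12 rose, and the part of epithelial cells in the fall of Dlk1 was not tested. Sgce, the ε-sarcoglycan of the dystrophin-associated membrane complex, measured 121, 92.2 and 107 CPM in controls and 59.4, 84.3 and 78.5 CPM in ablated libraries. Its groups did not overlap in CPM, and its log2 fold change was -0.53 ± 0.19 (SE). In TPM its groups overlapped, since control replicate 2 was at 124 TPM and ablated replicate 2 at 141 TPM.

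**Figure D1:**
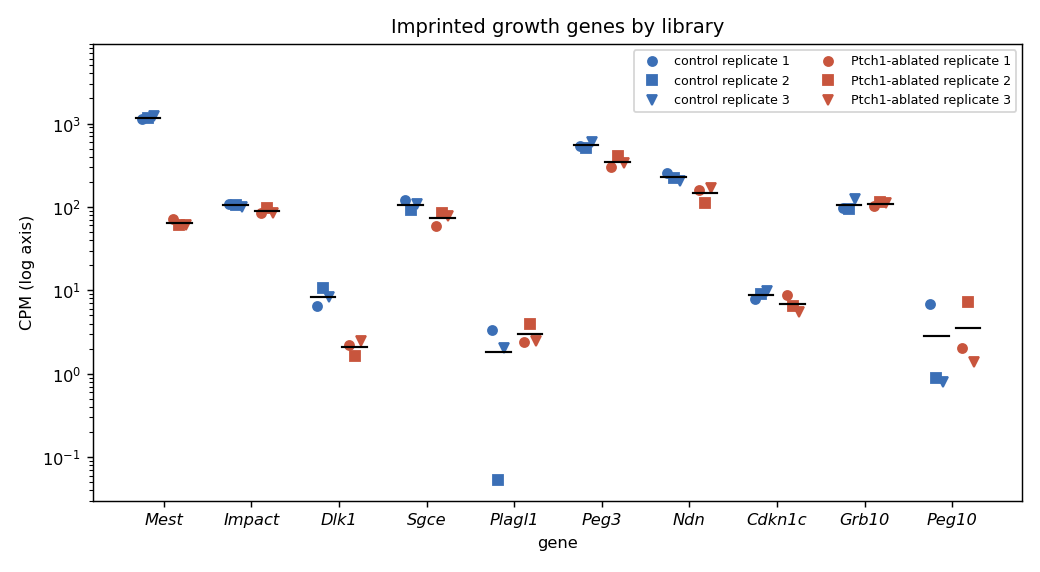
CPM of the 10 imprinted growth genes on a log axis, with 1 point per library, 3 control libraries in blue and 3 Ptch1-ablated libraries in red, and a black bar at the mean of each group. Mest lies at 1132 to 1220 CPM in controls and at 60.1 to 71.0 CPM in ablated libraries, Dlk1 is also separated, and the points of Plagl1 and Peg10 are spread within both groups.

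Peg3, a zinc finger protein of the nucleus, is expressed from the paternal copy. It measured 541, 515 and 608 CPM in controls and 303, 406 and 336 CPM in ablated libraries. The groups did not overlap, with a log2 fold change of -0.67 ± 0.14 (SE) or 1.59-fold. Ndn encodes necdin, a paternally expressed MAGE protein that holds back the cell cycle in neurons and other resting cells. It measured 253, 220 and 205 CPM in controls and 158, 110 and 169 CPM in ablated libraries, again without overlap, with a log2 fold change of -0.63 ± 0.18 (SE) or 1.55-fold. Ndn was -0.38 without control replicate 1 and ablated replicate 2, and Peg3 -0.81. Plagl1, a zinc finger factor often placed at the head of a network of imprinted genes, held 73, 1 and 47 counts in controls and 56, 94 and 62 counts in ablated libraries. The single count of control replicate 2 is under the floor, and the groups overlapped. The log2 fold change of Plagl1 was 0.70 ± 1.05 (SE). It was 0.13 without control replicate 2, 1.47 without control replicate 1 and 1.19 without control replicate 1 and ablated replicate 2.

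Cdkn1c and Grb10 are the maternally expressed members, and both restrain growth. Cdkn1c encodes p57, an inhibitor of cyclin-dependent kinases. It measured 7.89, 8.94 and 9.72 CPM in controls and 8.87, 6.41 and 5.52 CPM in ablated libraries, with overlapping groups and a log2 fold change of -0.35 ± 0.39 (SE). Grb10, an adaptor that dampens insulin and IGF receptors, measured 97.2, 94.99 and 123 CPM in controls and 102, 116 and 110 CPM in ablated libraries. All 3 ablated libraries of Grb10 lay within the range of the controls, and its log2 fold change was 0.06 ± 0.16 (SE).

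Peg10, a paternally expressed gene derived from a retrotransposon and needed for the placenta, held 150, 17 and 18 counts in controls and 48, 172 and 34 counts in ablated libraries. It was high in control replicate 1 and ablated replicate 2, the pair that the second component sets apart, and low in the other 4. The log2 fold change of 0.32 ± 0.98 (SE) became 2.08 without control replicate 1, -0.74 without ablated replicate 2 and 1.02 without both. No direction can be read for Peg10 from these libraries.

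Among the 10 members, 2 were called lower (Mest and Dlk1), where 2.13% of all tested genes were called lower, and 0 were called higher by edgeR, DESeq2 or limma, where 3.36% were by edgeR. At an unadjusted p under 0.05, 0 of the 10 were higher and 5 lower in edgeR, where 10.8% of all tested genes were higher and 9.72% lower at that level. With no minimum of fold change, 4 of 10 (Mest, Dlk1, Peg3 and Ndn) passed on the lower side, where 3.8% of all tested genes did, and 0 on the higher side, where 4.68% did. Ndn lost its pass whichever of the 6 libraries was dropped. Dropping any 1 of control replicates 2 and 3 and ablated replicates 1, 2 and 3 left Mest and Peg3, so that the count was 2, and dropping control replicate 1 left 3. With RLE scaling the count was 3, and with the replicate block it was 2. It was also 2 with limma on TPM at either pseudocount, where Peg3 and Ndn did not pass. In 6 of 10 the groups did not overlap and the ablated group was lower, where 13.3% of all tested genes did so. Nothing is read from these shares, because the set was assembled with the fall of Mest known. The median log2 fold change was -0.44 over the 10 members and 0.005 over all genes tested. With the 2-fold minimum kept, the call count was 1 or 2 under each other tool, scaling, count filter, block and set of libraries tried, the one that changed being Dlk1.

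Per length, the order of the members changed mainly at the place of Mest. In controls it ran Mest (984 TPM), Ndn (317), Sgce (146), Peg3 (134), Impact (63.8), Grb10 (43.3), Dlk1 (10.7), Cdkn1c (10.3), Peg10 (0.873) and Plagl1 (0.790), all as mean TPM. Neighbours whose control libraries overlapped were Sgce and Peg3, Dlk1 and Cdkn1c, and Peg10 and Plagl1. In ablated keratocytes Ndn led at 236 ± 40.0 TPM, followed by Sgce at 117 ± 24.1 TPM and Peg3 at 94.1 ± 13.4 TPM (SD, n = 3 each). Mest stood at 53.3 TPM between Impact at 62.6 TPM and Grb10 at 52.3 TPM, and its libraries overlapped those of both. Cdkn1c (9.44 TPM), Dlk1 (3.25), Plagl1 (1.47) and Peg10 (1.32) came last, as mean TPM. Ablated libraries of Sgce and Peg3, and of Plagl1 and Peg10, overlapped as well. Ndn, Sgce, Peg3, Impact and Grb10 thus kept the same order among themselves in both groups. The members together summed to 1710 ± 66.3 TPM in controls and 631 ± 16.6 TPM in ablated libraries. Mest made up 57.5% of that sum in controls and 8.47% in ablated libraries. Without Mest the other 9 summed to 761, 682 and 735 TPM in controls and 553, 587 and 594 TPM in ablated libraries, without overlap.

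**Figure D2:**
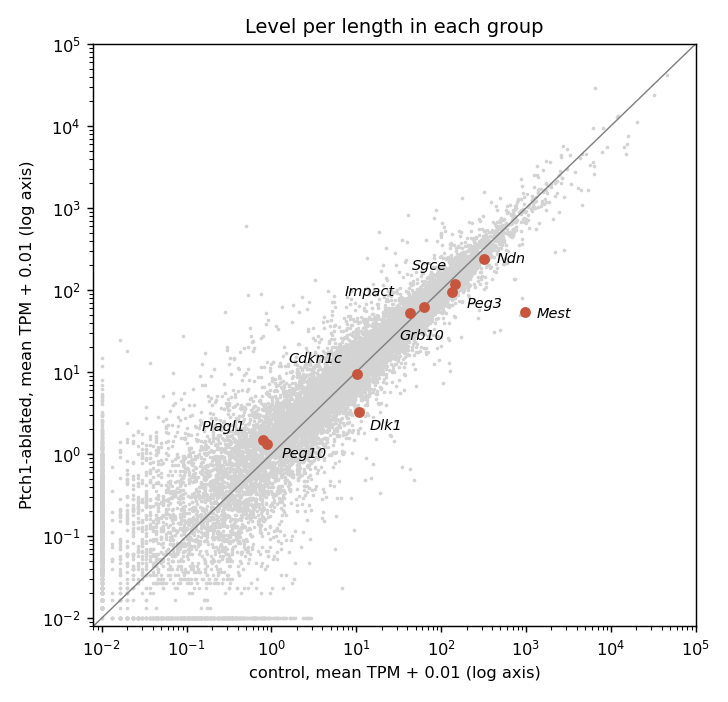
Mean TPM of every gene in the 3 Ptch1-ablated libraries against the 3 control libraries, with 0.01 added and log axes, the 10 members in red and the grey line marking equal levels. Mest, at 984 TPM in controls and 53.3 TPM in ablated libraries, lies far below the line, Dlk1 lies below it at a lower level, and the other 8 lie nearer to it.

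The genes nearest to Mest over the 6 libraries were found by the root mean square (RMS) difference of log2 CPM, each gene centred on its own mean, leaving out genes whose mean count was under 100. The nearest was Mamdc2 (RMS 0.16), a secreted protein with MAM domains, which measured 745, 752 and 805 CPM in controls and 52.0, 34.0 and 48.2 CPM in ablated libraries. The next were Ednrb (0.23), the endothelin receptor B, Crabp1 (0.31), which binds retinoic acid in the cytoplasm, Slc26a7 (0.34), an anion transporter, and Dpt (0.35), dermatopontin of the extracellular matrix. Their log2 fold changes were -4.10 for Mamdc2, -3.84 for Ednrb, -4.33 for Crabp1, -3.97 for Slc26a7 and -3.70 for Dpt, so that all 5 shared the depth of the fall that the measure of likeness rests on. The genes nearest to Dlk1 were Gask1b (RMS 0.16), Stac2 (0.18), Aqp3 (0.19), the glycerol channel aquaporin 3, Gria1 (0.23), an AMPA receptor subunit, and Mgarp (0.23). Mgarp stood at a far higher level per length than Dlk1, with 5389 ± 153 TPM against 10.7 ± 3.59 TPM in controls (SD, n = 3 each). None of these 10 genes is on the lists of imprinted genes used here.

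**Figure D3:**
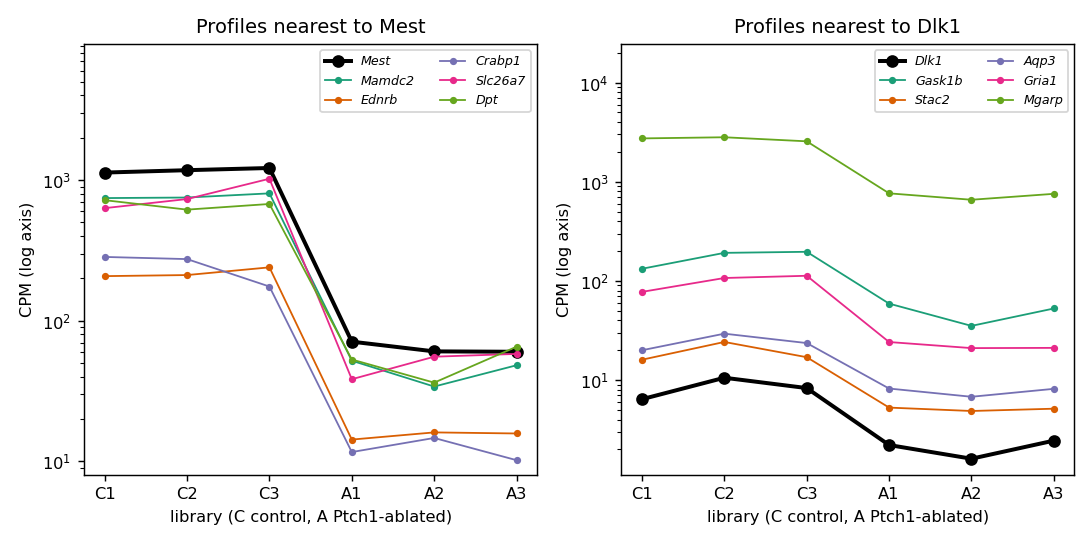
CPM on a log axis in the 3 control libraries (C1 to C3) and the 3 Ptch1-ablated libraries (A1 to A3) for Mest and Dlk1 (black) and the 5 genes nearest to each (coloured), with lines joining the points of a gene. Mest falls from 1132 to 1220 CPM to 60.1 to 71.0 CPM with Mamdc2, Ednrb, Crabp1, Slc26a7 and Dpt beside it, and the fall of Dlk1 and its neighbours is shallower.

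A further 64 imprinted genes were listed by the parental copy that textbook accounts give as expressed, which need not hold in keratocytes. Reads were not split by parental copy, so imprinting was not measured in these libraries. Of the 64 genes, 48 were in the table and 38 could be tested. Of these 38, 2 were called higher, 2 were called lower and 34 were not called, where 3.36% of all tested genes were called higher and 2.13% lower. Their median log2 fold change was -0.11. Both genes that rose were listed as paternally expressed. Nnat, neuronatin, a small membrane protein of the endoplasmic reticulum, rose from 52.9, 41.9 and 31.0 CPM in controls to 349, 267 and 367 CPM in ablated libraries. Its groups were far apart, and the log2 fold change was 2.97 ± 0.22 (SE, n = 3 each, adjusted p = 4.34e-06 by edgeR). Slc38a4, an amino acid transporter of the system A family, rose from 0, 1.42 and 3.28 CPM to 59.1, 63.3 and 65.0 CPM. Its log2 fold change was 5.30 ± 0.75 (SE, n = 3 each, adjusted p = 0.000724 by edgeR), a value that depends on how the library at 0 is handled and was 4.55 to 6.51 over the alternatives. Nnat and Slc38a4 were called under every alternative.

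The 2 imprinted genes that fell, beside the members, were Ano1 and Rasgrf1. Ano1, the calcium-activated chloride channel, was maternally expressed on the list and fell from 134, 157 and 174 CPM to 58.2, 58.2 and 40.5 CPM, and the log2 fold change was -1.57 ± 0.19 (SE, n = 3 each, adjusted p = 0.00022 by edgeR). Rasgrf1, a paternally expressed exchange factor for Ras, fell from 56.0, 60.4 and 72.0 CPM to 21.7, 37.1 and 21.6 CPM, and the log2 fold change was -1.23 ± 0.25 (SE, n = 3 each, adjusted p = 0.00872 by edgeR). Its call was lost without ablated replicate 3 (-1.10, edgeR adjusted p = 0.0513). By the listed parental copy, 2 of 13 paternally expressed genes were called higher and 1 lower, and of 25 maternally expressed genes 0 were called higher by edgeR and 1 lower. Over all tested genes 3.36% were called higher and 2.13% lower, and no difference between the parental copies is read from counts this small. In the higher direction 3 of the 25 maternally expressed genes had an unadjusted p under 0.05 in edgeR, where 10.8% of all tested genes did, and DESeq2 called 1 and limma 2.

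**Figure D4:**
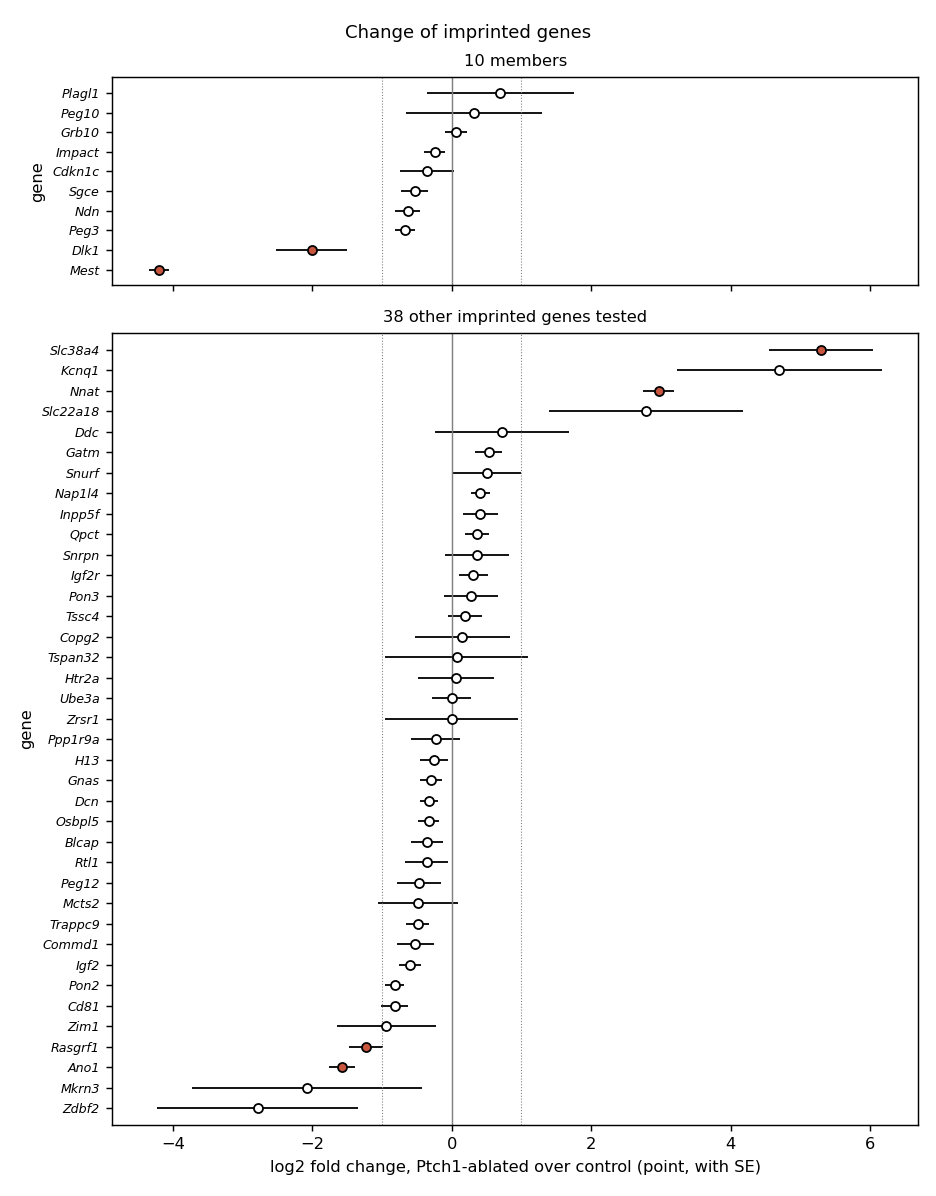
Log2 fold change of Ptch1-ablated over control keratocytes with SE for the 10 members (upper panel, a description with no test) and the 38 other imprinted genes tested (lower panel), with filled points for the genes called and dotted lines at 2-fold. Mest at -4.20 and Slc38a4 at 5.30 lie at the ends, and most imprinted genes lie between the dotted lines.

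A further 3 of these genes passed the adjusted p with changes under 2-fold, where 1.67% of all tested genes passed in this way on the lower side and 1.32% on the higher side. They were Igf2 (-0.60 ± 0.16, edgeR adjusted p = 0.0337), Cd81 (-0.82 ± 0.20, edgeR adjusted p = 0.0253) and Pon2 (-0.82 ± 0.14, edgeR adjusted p = 0.00343), each as log2 fold change with SE and all lower in the ablated group. Pon2 passed whichever library was left out. The adjusted p of Igf2 by edgeR rose to 0.161 when control replicate 2 was dropped, to 0.0685 for control replicate 3, to 0.0868 for ablated replicate 1 and to 0.128 for ablated replicate 3. That of Cd81 by edgeR rose to 0.0607 when control replicate 1 was dropped, to 0.118 for control replicate 2, to 0.103 for ablated replicate 2 and to 0.111 for ablated replicate 3. Igf2, the fetal growth factor that lies within 1 Mb of Cdkn1c on chromosome 7, measured 133, 156 and 137 CPM in controls and 96.0, 102 and 82.8 CPM in ablated libraries. Igf2r, the receptor that clears it, was not called, at 0.31 ± 0.21 (SE, edgeR adjusted p = 0.459). The proteoglycan Dcn, the most abundant gene on the list, was not called either, at -0.32 ± 0.13 (SE, edgeR adjusted p = 0.177). Gnas, H13, Nap1l4 and Osbpl5, the other abundant genes on it, lay between -0.33 and 0.41.

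The members were also set beside the imprinted genes within 1 Mb of them in the RefSeq gene table. Copg2, which overlaps Mest on the opposite strand, measured 1.42, 12.99 and 16.4 CPM in controls and 7.72, 18.9 and 7.53 CPM in ablated libraries. Its groups overlapped, the log2 fold change being 0.15 ± 0.68 (SE, adjusted p = 0.945 by edgeR), and its value was -0.95 without control replicate 1 and ablated replicate 2. Whether strand was used in counting is not given in the sources used here, so reads of Mest and Copg2 in the shared stretch cannot be told apart. Rtl1, a retrotransposon-derived gene in the domain of Dlk1, was at -0.36 ± 0.31 (SE, edgeR adjusted p = 0.589), at 0 without control replicate 1 and at -0.18 without that library and ablated replicate 2. Beside Sgce and Peg10, Pon2 was lower as given above, while Pon3 (0.28) and Ppp1r9a (-0.23, or -0.45 without that pair) were not called. Beside Peg3, Zim1 (-0.94, or -0.48 without the same pair) was not called, and beside Ndn neither Mkrn3 (-2.07) nor Peg12 (-0.47) was. Of 8 neighbours of Cdkn1c that were tested, 0 were called by edgeR, while 2 were higher and 3 lower at an unadjusted p under 0.05 in it, where 10.8% and 9.72% of all tested genes were. DESeq2 called 1 of them and limma 2, all higher. Kcnq1 was at 4.70 ± 1.47 (SE, edgeR adjusted p = 0.0754) from 0, 0 and 0.263 CPM to 3.24, 1.53 and 2.66 CPM. Its fold rests on controls at or near 0. The log2 value of Kcnq1 was 8.80 without control replicate 3, and 1.47 and 3.68 by limma with pseudocounts of 1 and 0.1, and it was called there and with DESeq2. Slc22a18 (2.79) was 6.98 without control replicate 2, and 2.22 and 4.12 by limma with the same pseudocounts, and it was called there, while it was 1.77 and not called without control replicate 1 and ablated replicate 2. Beside Grb10, Ddc (0.72) was not called. Klf14, Meg3, Rian, Mirg, Dio3, Calcr, Magel2, H19 and Kcnq1ot1 were not analysed here.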

How the data were processed

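RNA of sorted corneal keratocytes was measured in 6 libraries, grouped by their titles into 3 control and 3 Ptch1-ablated. Per the labels, Trizol was used for extraction and a TruSeq kit of Illumina for the libraries, whereas the paper's methods describe ribosomal depletion and a BGISEQ platform. The submitters' processing notes list Bowtie2 (2.2.5), RSEM (1.2.12) and the build mm9, which differs from the GRCm38 sequences used here, and no position is taken from the table. The authors deposited RSEM expected counts per gene, of which 18.6% are not whole because reads that match several genes are split, and TPM values scaled by the authors for length and to a common sum. Their FPKM values and group averages were not used.

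The 10 members and all gene lists were chosen with earlier results of these data known. Expected counts were rounded and fitted over all genes with edgeR (4.0.16, R 4.3.3; TMM, filterByExpr, quasi-likelihood F test, two-sided, Benjamini-Hochberg adjustment). A call needed a change of at least 2-fold beside an adjusted p no higher than 0.05, as in the paper's methods. The floor covers counting error only. Each SE was worked back from the edgeR fit, as the size of the log2 fold change over the square root of its F statistic. Each SD comes from the libraries of a group, so both include the spread between libraries. Nothing in the labels says that the libraries of a group came from separate mice, although the paper calls them biological replicates, so p-values measure the spread between these libraries. No pair of libraries agreed within sampling noise (smallest chi-square per degree of freedom 35). Same-numbered libraries did not deviate together (correlations -0.05, -0.05 and 0.04), so numbers were not treated as pairs. Named genes were the members, their imprinted neighbours within 1 Mb, every called gene of the imprinted and partner lists with up to 10 more of the highest mean TPM, the 5 nearest profiles of Mest and of Dlk1, and Ptch1, Gli1 and Hhip. Genes named outside this rule (Igf2r, Krt12, Kdr, Col8a2, Insr, Irs2, Ddx3y, Dnmt1, Zfp57, Uhrf1, Setdb1, Dnmt3a, Tet2 and Tet3) were chosen after their values were seen. Alternatives were DESeq2 (1.42.0), limma (3.58.1) on log2(TPM + 1) and log2(TPM + 0.1), RLE scaling, other count filters, no fold minimum, a replicate block and leaving out each library. Leaving out control replicate 1 and ablated replicate 2 together was chosen after seeing the data. Scripts were tested on simulated data. Promoter and miRNA sequences are from RefSeq (GRCm38.p6) and exons from GENCODE M21.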

Additional observations from a re-analysis of the deposited data

How the results depend on the processing

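The total of 763 called genes was 1178 with no fold minimum and 611 to 756 when 1 library was left out. DESeq2 called 1025 and limma 1051 and 943 with pseudocounts of 1 and 0.1 on TPM. The 2 other imprinted genes called higher became 4 with limma on both TPM scales, where Kcnq1 and Slc22a18 joined Nnat and Slc38a4, and 2 to 3 with a library left out. The 2 called lower became 5 with no fold minimum and 1 to 3 with a library left out, 1 being without ablated replicate 3, which cost Rasgrf1 its call. Same-numbered libraries share only a number. The replicate block gave 663 called genes and 2 other imprinted genes called in each direction, and cost Dlk1 (-1.99) and Grb14 (2.23) their calls. Without control replicate 1 and ablated replicate 2 together, 744 genes were called, with 2 other imprinted genes higher and 2 lower. On the TPM scales the median over all genes was 0.19 and 0.22, against 0 in the edgeR fit, and there Impact was at -0.03 and -0.04 and Grb10 at 0.27 and 0.28. Some genes that were not called changed sign. Without ablated replicate 3, Atf4 was -0.01, Tssc4 -0.06 and Tspan32 -0.59. Without control replicates 2 and 3 in turn Tspan32 was -0.31 and -0.47. Copg2 was -0.37 without control replicate 1, -0.43 without ablated replicate 2 and -0.95 without both. With a library left out, Copg2 ranged from -0.43 to 0.66, Tspan32 from -0.59 to 2.16 and Tssc4 from -0.06 to 0.39. The cause was not tested. Depth limits Plagl1, Peg10 and Dlk1, whose libraries held 1 to 201 counts, and also Cdkn1c, whose libraries held 137 to 222.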

Other observations

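The partners of the members were described from lists of their pathways. A list of 14 factors held maintainers of imprints, such as the DNA methyltransferase Dnmt1, its partner Uhrf1 and the zinc finger protein Zfp57. It also held enzymes that add new DNA methylation or remove it, such as Dnmt3a and Tet2. Of the 14, 0 were called by edgeR. In ablated libraries 11 stood higher, with a list median of 0.54 on the log2 scale against 0.005 over all genes. At an unadjusted p under 0.05, 4 of the 14 were higher in edgeR, where 10.8% of all tested genes were, while DESeq2 and limma called 0. These 4 were Setdb1, Dnmt3a, Tet2 and Tet3, so that they include Tet enzymes, which act in the removal of methylation. Dnmt1 measured 34.6, 17.5 and 29.9 CPM in controls and 33.1, 61.05 and 34.9 CPM in ablated libraries, with overlapping groups. Of 8 tested genes outside imprinting that decline with growth after birth, 0 were called by edgeR, DESeq2 or limma and 0 had an unadjusted p under 0.05 in edgeR, and Gpc3, an X-linked glypican that restrains growth, was at 0.11 ± 0.13 (SE). Of 7 tested genes of the sarcoglycan complex around Sgce, 0 were called by edgeR, DESeq2 or limma and 1 had an unadjusted p under 0.05 in edgeR, being lower, where 9.72% of all tested genes were.

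Around Grb10, 1 of 7 receptor partners was called higher, where 3.36% of all tested genes were. This was its relative Grb14, at 2.48, 2.84 and 0.788 CPM in controls and 9.68, 8.45 and 7.45 CPM in ablated libraries. The log2 fold change of Grb14 was 2.07 ± 0.58 (SE, n = 3 each, edgeR adjusted p = 0.0493), and its call was lost whichever library was left out (edgeR adjusted p = 0.0552 to 0.181). The insulin receptor Insr rose from 87.1, 117 and 114 CPM to 196, 252 and 183 CPM, a log2 fold change of 0.99 ± 0.18 (SE, n = 3 each, edgeR adjusted p = 0.00381) that is just under 2-fold. Irs2, an adaptor below that receptor, was at -0.65 ± 0.15 (SE, n = 3 each, edgeR adjusted p = 0.0144). Around Impact, 1 of 9 genes of the Gcn2 pathway was called lower, where 2.13% of all tested genes were. This was Trib3, a pseudokinase induced by amino acid shortage, which fell from 413, 379 and 348 CPM to 159, 120 and 119 CPM, with a log2 fold change of -1.52 ± 0.16 (SE, n = 3 each, edgeR adjusted p = 5.88e-05). Atf4, the transcription factor above it, was at 0.09 ± 0.14 (SE, n = 3 each, edgeR adjusted p = 0.810). Of the 9 genes on this list, 6 stood higher and 3 lower in ablated libraries, with a list median of 0.11 on the log2 scale.

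Vascular endothelium summed to 553 to 771 CPM in controls and 647 to 713 CPM in ablated libraries, with 3 of 5 called higher, where 3.36% of all tested genes were. Most of this sum was Kdr, at means of 553 CPM in controls and 420 CPM in ablated libraries, while 4 of the 5 markers stood higher in ablated libraries. Schwann cell markers summed to 68.6 to 98.8 and 128 to 141 CPM, with 1 of 5 called higher, and corneal endothelium markers to 669 to 822 and 508 to 856 CPM, with 2 of 5 called higher. Most of the corneal endothelium sum was Col8a2, at means of 699 CPM in controls and 536 CPM in ablated libraries, while 4 of these 5 markers stood higher in ablated libraries. Leukocyte markers summed to 376 to 494 and 466 to 553 CPM with 0 of 6 called, melanocyte markers to 3.72 to 7.22 and 4.59 to 7.61 CPM with 0 of 3 called, and preadipocyte and adipocyte markers to 6 to 18.4 and 21.9 to 35.4 CPM with 0 of 4 called, all by edgeR. At an unadjusted p under 0.05 in edgeR, 1 leukocyte, 0 melanocyte and 2 adipocyte markers were higher, where 10.8% of all tested genes were, and DESeq2 called 0, 0 and 1 of them. With limma on TPM and pseudocounts of 1 and 0.1, 0 and 1 leukocyte, 0 and 0 melanocyte and 2 and 1 adipocyte markers were called higher. Of 3 tested genes of the Y chromosome, 1 was called lower by edgeR, Ddx3y, where 2.13% of all tested genes were. DESeq2 called 1 lower and limma 0 on both TPM scales, and the groups overlapped for the 2 not called by edgeR. Together these genes summed to 17.1 to 29.6 CPM in controls and 11.1 to 15.1 CPM in ablated libraries. The part of these cell types and of the sex of the mice in the values of the imprinted genes was not tested.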
